A study of Homo sapiens with 2 samples.

Results

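The 39 genes described here encode chaperones, co-chaperones and chaperonin subunits of human cells and the heat shock factors HSF1 and HSF2. They were chosen by gene symbol, in part as targets of HSF1, and all 39 were found among the 16424 genes with deposited values. By role they are 2 heat shock factors, 12 genes of the HSP70 system including the small heat shock protein HSPB1, and 8 genes of the HSP90 system. The others are 4 mitochondrial chaperones, the 8 subunits of the CCT chaperonin and 5 subunits of prefoldin. Most of the encoded proteins are cytosolic, but those of HSPA9, HSPD1, HSPE1 and TRAP1 work in mitochondria, and HSF1 and HSF2 are transcription factors.

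PLC/PRF/5, a human hepatoma cell line, was grown in dishes and given medium with or without M2BPGi, a glycosylated form of Mac-2 binding protein that serves as a liver fibrosis marker. Non-treated cells (0 µg/ml) and cells kept for 6 h with 3 µg/ml M2BPGi gave 1 library each. Transcripts were measured by cap analysis of gene expression (CAGE), which reads a short tag at the capped 5′ end of each RNA. The libraries held 24040209 tags without and 24862941 tags with M2BPGi, and the deposited unit is CPM, in which the tags of a gene are scaled to the size of its library.

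Chaperones bind proteins that are not yet folded, or no longer folded, and keep them from aggregating. HSP70 proteins take up short exposed stretches with the help of J-domain proteins, HSP90 proteins act later on kinases and steroid receptors, and prefoldin passes actin and tubulin to the CCT ring, in which they fold. HSF1 is the factor that raises many of these genes under heat or other protein damage, and tumour cells, hepatoma cells included, often depend on high chaperone levels.

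All 39 genes had a mean of at least 1 CPM, the level that 13724 of the listed genes reached. Log2 ratios (with over without M2BPGi) were taken after adding 1 CPM, so that those of weakly expressed genes are drawn towards 0. Of the 39 genes, 25 were higher in M2BPGi-treated cells, where 42.9% of all genes tested were higher, and 14 were lower, where 57% of all genes tested were lower. At least 25% higher on that scale were 7 genes, HSPB1, FKBP4, CCT7, CCT8, PFDN2, PFDN5 and PFDN6, against a background of 9.04% of all genes. At least 20% lower, the same fold downwards, were 3 genes, HSPA1A, HSPA1B and CHORDC1, against 18.4% of all genes. CCT8 was the 1 gene at least 1.5-fold higher (1.6% of all genes), and 0 were at least 1.5-fold lower (4.04% of all genes). CCT8 falls short of 1.5-fold, with a log2 ratio of 0.57, when its listed pseudogene copies are added, and CCT7 comes past it, with 0.60, after recentring. The median log2 ratio of the 39 genes was 0.08, and that of all genes tested was -0.05. Their summed level was 9514 CPM without and 10142 CPM with M2BPGi, which is 1.01% and 1.07% of the CPM on listed genes.

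With 1 library per condition, no difference has a replicate check, and the interval given with a gene is the 95% Clopper-Pearson interval of the log2 ratio of its tags, which covers counting error only. By a binomial test on tag numbers, a comparison of these libraries and not of the conditions, 22 of the 39 genes were higher, beside 20.9% of all genes. By the same test 9 were lower, beside 28.7% of all genes. The test calls a difference more easily where tags are many. The lowest mean among the 39 genes was 26.95 CPM (DNAJB6), while all genes tested begin at 1 CPM, so these shares are not of genes of like abundance. After recentring the ratios so that the median gene is at 0, HSPA1A and CHORDC1 were no longer past 20% lower, and TCP1 and STIP1 came past 25% higher, which made 9 genes higher and 1 lower. Recentring also moved the numbers of all genes past the same fold from 1240 higher and 2532 lower to 1716 higher and 1920 lower.

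**Figure D1:**
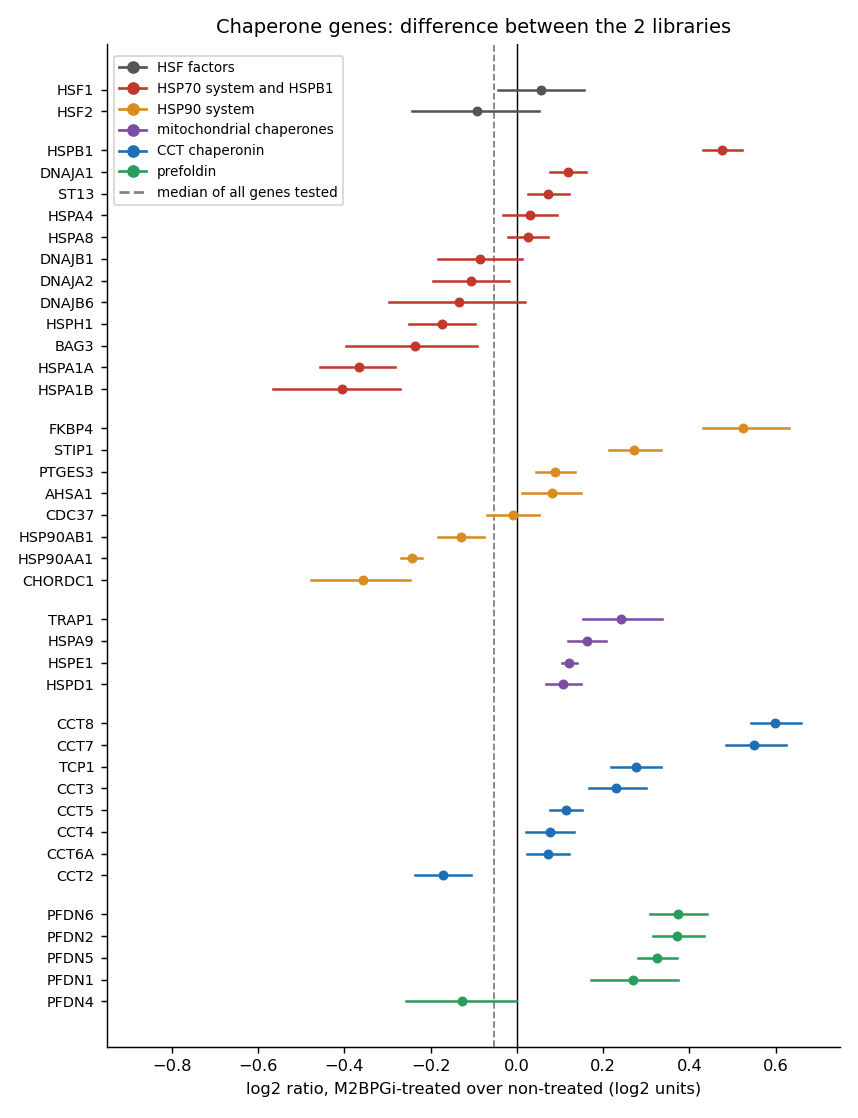
Log2 ratio (with over without M2BPGi) of each of the 39 genes, grouped by role, with 1 library per condition. Points are log2 ratios with 1 CPM added, bars are 95% Clopper-Pearson intervals of the tag ratio (counting error only), and the dashed line is the median of all genes tested, -0.05. The prefoldin genes other than PFDN4 and the CCT genes other than CCT2 lie above 0, and HSPA1A and HSPA1B lie lowest.

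Since a CAGE tag marks 1 capped 5′ end whatever the length of the transcript, levels of different genes can be set side by side in CPM without dividing by length. On this scale the 5 highest genes came in the same order in both libraries, HSPE1, HSP90AA1, CCT5, HSPD1 and DNAJA1. The HSPE1 row has the same values as that of MOB4, so the first place may belong to tags of either gene. At the low end were DNAJB6, BAG3, HSF2 and HSPA1B, all under 40 CPM in both libraries. Among the genes that moved up in this order were HSPB1, from place 12 to 6, and CCT8, from place 21 to 13.

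**Figure D2:**
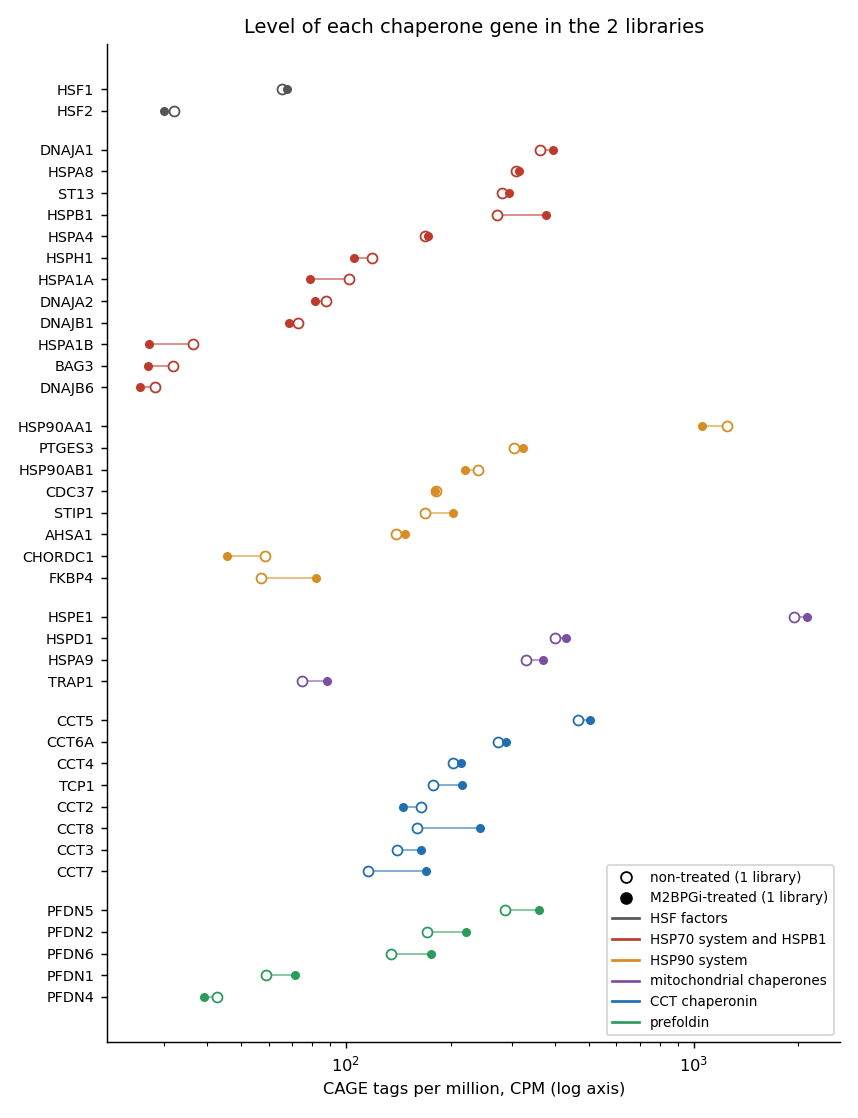
Level of each of the 39 genes in CPM on a log axis, grouped by role, ordered by the non-treated level. Open points are non-treated cells and filled points are M2BPGi-treated cells, with 1 library each. HSPE1 and HSP90AA1 lie farthest to the right in both libraries, and the distance between libraries is small beside the distance between genes.

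The heat shock factors themselves had small ratios. HSF1 (ENSG00000185122), the main activator of the heat shock response, was at 65.4 CPM without and 67.9 CPM with M2BPGi, and its interval of -0.04 to 0.16 includes 0. HSF2, a related factor that can bind the same elements, was at 32.1 and 30.0 CPM, with an interval of -0.24 to 0.05. After recentring, the interval of HSF1 was 0.01 to 0.21, so whether it includes 0 depends on the scaling. HSBP1, which encodes a small protein that binds HSF1, was outside the 39 genes and was at 249 and 288 CPM, a log2 ratio of 0.21 with an interval of 0.16 to 0.26.

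HSF1 binds heat shock elements, which are built from GAA units in alternating orientation. The 250 bases before each RefSeq start were searched for facing pairs of units, GAANNTTC or TTCNNGAA, which read the same on both strands. The stretches shown are from 7 of the 39 genes that differ in direction, so that the match and the value can be read together. Of these genes HSPB1 and TCP1 were higher with M2BPGi and the others lower. A stretch of DNAJA1, which was higher (log2 ratio 0.12), was found as well and is not shown. Sequences are from RefSeq (GRCh38.p14), 5′ to 3′ on the strand of the gene, with the matches in capitals and 12 bases on either side. All of them lie outside the exons that GENCODE v29 gives on that strand.
HSPA1A, chr6:31815425-31815456, plus strand: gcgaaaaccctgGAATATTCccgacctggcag
HSPA1B, chr6:31827621-31827652, plus strand: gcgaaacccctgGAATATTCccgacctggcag
DNAJB1, chr19:14518425-14518486, minus strand: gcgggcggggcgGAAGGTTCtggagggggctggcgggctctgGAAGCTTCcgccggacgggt
DNAJB6, chr7:157336861-157336897, plus strand: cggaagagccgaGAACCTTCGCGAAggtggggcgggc
HSPB1, chr7:76302479-76302510, plus strand: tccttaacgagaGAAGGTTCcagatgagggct
HSP90AB1, chr6:44247766-44247855, plus strand: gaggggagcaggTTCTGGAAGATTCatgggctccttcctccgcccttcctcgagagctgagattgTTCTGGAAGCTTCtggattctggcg
TCP1, chr6:159789814-159789845, minus strand: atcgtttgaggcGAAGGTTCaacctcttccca

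Of the 39 genes, 34 had a RefSeq window, and CCT6A, FKBP4, HSF1, PFDN2 and ST13 had none. A facing pair of units was present in 14 of the 34 genes, beside 14.0% of the 27305 genes with such windows. Targets of HSF1 were among the criteria for choosing the 39 genes, so element shares above those of all genes can follow from that choice. The 14 genes had a median log2 ratio of -0.11, and 6 of them were higher with M2BPGi and 8 lower. Of all genes tested, 42.9% were higher and 57% lower, with a median of -0.05, so the 14 genes were divided much as all genes were. The 20 genes without the pair had a median of 0.10, with 14 higher and 6 lower. A run of 3 units, GAANNTTCNNGAA on either strand, holds both pairs, and it was present in 6 of the 34 genes beside 0.557% of all genes with windows. These were CHORDC1, DNAJB6, HSP90AA1, HSP90AB1, HSPA8 and HSPD1, with a median of -0.13, and 2 of them were higher and 4 lower. The capitals in DNAJB6 and HSP90AB1 above include such runs, and those of HSP90AB1 lie after 2 of the 3 starts that RefSeq lists for the gene. The DNAJB1 stretch lies after 1 of the 3 starts of its gene. A TATAAA box was present in 4 of the 34 genes, HSF2, HSPA1A, HSPA1B and STIP1, beside 13.0% of all genes. CCAAT was present in 12, beside 37.0%. A match describes the letters only, and whether it has a part in the ratios was not tested.

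**Figure D3:**
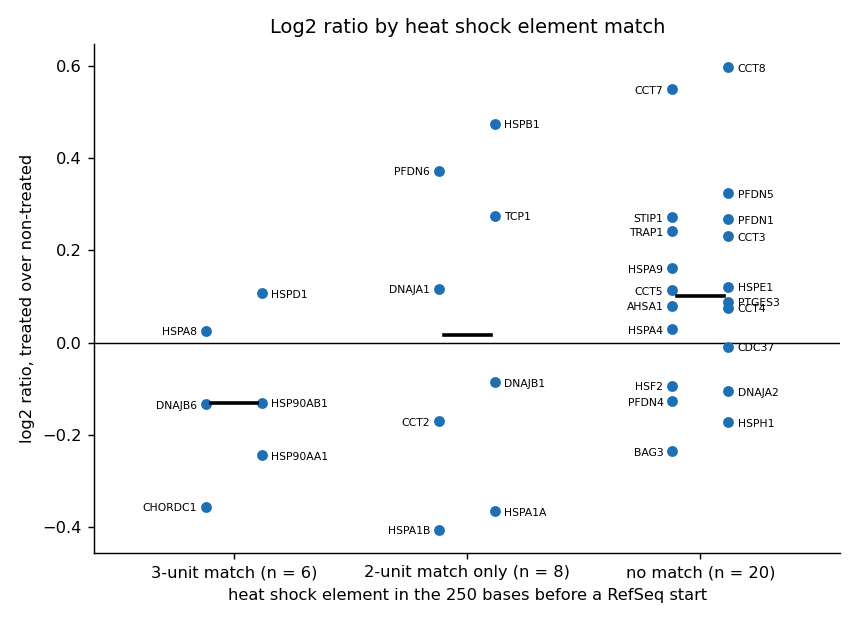
Log2 ratio of the 34 genes with a RefSeq window, by the heat shock element match in the 250 bases before a start, with 1 library per condition. Points are genes and black bars are medians, which are -0.13 for 6 genes with a run of 3 units, 0.02 for 8 genes with a facing pair only and 0.10 for 20 genes without a match. Each class holds genes on both sides of 0, and the median of all genes tested is -0.05.

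In the HSP70 system, HSPB1 was higher and the inducible HSP70 genes were lower in M2BPGi-treated cells, while the constitutive HSP70 gene had a ratio near 0. Of the 12 genes 5 were higher and 7 lower, with a median log2 ratio of -0.10. The median was -0.04 after recentring and -0.15 over the genes without listed pseudogene copies. Their summed level went the other way, from 1869 to 1966 CPM, a log2 ratio of 0.07 with an interval of 0.05 to 0.09. HSPB1 (ENSG00000106211), which encodes a small heat shock protein that holds unfolded proteins without using ATP, was at 271 CPM without and 377 CPM with M2BPGi. Its log2 ratio was 0.47, with an interval of 0.43 to 0.52, and 96.7% of all genes tested had a lower ratio. HSPA1A (ENSG00000204389), the heat-inducible HSP70, was at 102 and 78.9 CPM, a log2 ratio of -0.37 with an interval of -0.46 to -0.28. HSPA1B (ENSG00000204388), its neighbour, was at 36.3 and 27.2 CPM, a log2 ratio of -0.40 with an interval of -0.57 to -0.27.

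HSPA1A and HSPA1B encode almost the same protein, and their RefSeq starts lie 12195 bases apart on chromosome 6. Of 249 aligned bases before the starts 235 were identical (94.4%). Tags are read from the transcribed 5′ ends, which were not compared, so the division of tags between these genes is uncertain. Summed over both, the level was 138 CPM without and 106 CPM with M2BPGi. This sum does not depend on that division if each tag was counted once, which is not known. The log2 ratio of the sums was -0.38, with an interval of -0.46 to -0.31.

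HSPA8, the constitutive HSP70 of the cytosol, was at 308 and 314 CPM, with an interval of -0.02 to 0.07 that became 0.03 to 0.12 after recentring. The level of HSPA8 was 3.02 times that of HSPA1A in non-treated cells and 3.98 times in M2BPGi-treated cells. Small nucleolar RNA genes with their own rows lie within HSPA8 on its strand, so the division of tags is uncertain, and with it the level of HSPA8 and its ratio to HSPA1A. SNORD14C was at 32.8 and 29.7 CPM, SNORD14D at 32.8 and 29.7 CPM, and SNORD14E at 20.0 and 19.1 CPM. Among the HSP110 proteins, which exchange the nucleotide of HSP70, HSPA4 was at 169 and 172 CPM (interval -0.03 to 0.09, and 0.02 to 0.14 after recentring). HSPH1, the heat-inducible HSP110, was at 119 and 105 CPM (interval -0.25 to -0.10).

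J-domain proteins deliver clients to HSP70. DNAJA1, the most abundant of them here, was at 363 and 393 CPM, with an interval of 0.08 to 0.16. DNAJA2, from the same class, was at 87.5 and 81.3 CPM, with an interval of -0.20 to -0.02. These closely related genes had ratios of opposite sign, but after recentring the interval of DNAJA2, -0.14 to 0.03, includes 0. DNAJB1, which works with HSP70 in disaggregation, was at 72.6 and 68.4 CPM (interval -0.18 to 0.01). DNAJB6, which holds back the aggregation of polyglutamine proteins, was at 28.2 and 25.7 CPM (interval -0.30 to 0.02), and neither difference was detectable at this depth. BAG3, an HSP70 co-chaperone of selective autophagy, was at 31.9 and 27.0 CPM, with an interval of -0.40 to -0.09. ST13, which links HSP70 to HSP90 complexes, was at 281 and 295 CPM, with an interval of 0.03 to 0.12.

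Related genes outside the 39 went both ways too. Of 16 other HSP70, HSP110 and small HSP genes, 9 reached 1 CPM, with 4 higher, 5 lower and a median of -0.04 that became 0.01 after recentring. HSPA1L, which lies beside HSPA1A, had the lowest ratio among those with a mean of at least 10 CPM, with 14.3 and 9.49 CPM (log2 ratio -0.54, interval -0.83 to -0.34). CRYAB, a small heat shock protein like HSPB1, had the highest, with 12.6 and 16.6 CPM (log2 ratio 0.37, interval 0.18 to 0.62). A list of other J-domain genes, some of which encode proteins of the endoplasmic reticulum membrane (DNAJB12, DNAJB14), had 27 genes, 12 higher and 15 lower. Its median was -0.07, which was -0.02 after recentring, and 0.0011 among those with a mean of at least 10 CPM. Among those with a mean of at least 10 CPM, DNAJC19 was the highest with 39.6 and 50.4 CPM (log2 ratio 0.34), and GAK was the lowest with 36.7 and 28.6 CPM (log2 ratio -0.35). Nucleotide exchange factors and HSP70 regulators had 8 of 9 genes higher and a median of 0.19. STUB1, the ubiquitin ligase that acts on clients of HSP70 and HSP90, led that list with 123 and 168 CPM (log2 ratio 0.44, interval 0.38 to 0.51), and BAG1 was its 1 lower gene, at 65.6 and 64.6 CPM, a ratio of -0.02 whose sign recentring turns.

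In the HSP90 system, both HSP90 genes and CHORDC1 were lower, while the co-chaperones FKBP4 and STIP1 were higher. HSP90AA1 (ENSG00000080824), the stress-inducible HSP90, was at 1249.8 CPM without and 1056 CPM with M2BPGi. Its log2 ratio was -0.24, with an interval of -0.27 to -0.22, and its difference of -194 CPM was the largest fall in CPM among the 39 genes. HSP90AB1 (ENSG00000096384), the constitutive HSP90, was at 240.2 and 219 CPM, a log2 ratio of -0.13 with an interval of -0.18 to -0.08. The level of HSP90AA1 was 5.20 times that of HSP90AB1 in non-treated and 4.81 times in M2BPGi-treated cells. HSP90AB3P, a listed pseudogene copy of HSP90AB1, was at 18.4 and 22.4 CPM, which is 7.67% and 10.2% of its parent gene, so a part of the tags could belong to either.

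FKBP4 (ENSG00000004478), the immunophilin FKBP52 of steroid receptor complexes, was at 56.9 and 82.2 CPM, a log2 ratio of 0.52 with an interval of 0.43 to 0.63. STIP1, the adaptor HOP that bridges HSP70 and HSP90, was at 169 and 204 CPM, a log2 ratio of 0.27 with an interval of 0.21 to 0.33. CHORDC1 (ENSG00000110172), a zinc-binding co-chaperone, was at 58.7 and 45.7 CPM, a log2 ratio of -0.36 with an interval of -0.48 to -0.25. FKBP4 and CHORDC1 thus began at similar levels and ended on opposite sides. The remaining co-chaperones moved little. AHSA1, which stimulates the ATPase of HSP90, was at 139.6 and 148 CPM (interval 0.01 to 0.15). PTGES3, the p23 protein that stabilises closed HSP90, was at 305 and 324 CPM (interval 0.04 to 0.14). CDC37, the adaptor for kinases, was at 182 and 181 CPM (interval -0.07 to 0.05), and its log2 ratio of -0.01 became 0.04 after recentring. The 8 genes had 4 higher and 4 lower, with a median of 0.04 that was 0.09 after recentring and 0.08 over the genes without listed copies, and their sum went from 2400.1 to 2259 CPM.

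Of 22 other HSP90 co-chaperones that reached 1 CPM, 17 were higher and 5 lower, with a median of 0.07 that was 0.12 after recentring. TTC4 was the highest of those with a mean of at least 10 CPM, with 15.2 and 23.8 CPM (log2 ratio 0.61, interval 0.46 to 0.84). RUVBL2, an ATPase of the R2TP complex, came next with 96.0 and 122 CPM (log2 ratio 0.34). AHSA2, a relative of AHSA1, was the lowest with 46.1 and 24.5 CPM (log2 ratio -0.89, interval -1.06 to -0.77). FNIP1 followed with 42.0 and 34.4 CPM (log2 ratio -0.28).

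The 4 mitochondrial chaperones were all higher in M2BPGi-treated cells, though none by 25%. HSPA9, the HSP70 of the matrix, was at 329.95 CPM without and 369 CPM with M2BPGi, a log2 ratio of 0.16 with an interval of 0.12 to 0.21. HSPD1, the HSP60 chaperonin, was at 399 and 429.9 CPM, a log2 ratio of 0.11 with an interval of 0.07 to 0.15. HSPE1, its HSP10 lid, was at 1949 and 2120.0 CPM, a log2 ratio of 0.12 with an interval of 0.10 to 0.14. TRAP1, the mitochondrial HSP90, was at 74.6 and 88.4 CPM, a log2 ratio of 0.24 with an interval of 0.15 to 0.34.

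HSPD1 and HSPE1 face away from each other, and the nearest of their RefSeq starts lie 105 bases apart. The level of HSPE1 was 4.88 times that of HSPD1 in non-treated and 4.93 times in M2BPGi-treated cells. The HSPE1 row, however, has the same values in both libraries as the row of MOB4. By its identifier, the MOB4 row overlaps HSPE1 on the same strand in GENCODE v29. GENCODE v29 also holds a read-through gene of the pair, so tags of HSPE1 and MOB4 cannot be told apart in these values. Without HSPE1, a choice made after the data were seen, the median of the mitochondrial genes was 0.16, beside 0.14 with it. The other 38 genes of the full list then summed to 7565 and 8022 CPM. Of 13 other genes of mitochondrial protein quality control, 9 were higher and 4 lower, with a median of 0.12. ATF5, a factor of the mitochondrial unfolded protein response, was the highest with 8.36 and 14.9 CPM (log2 ratio 0.76, interval 0.58 to 1.09). SPG7, a subunit of an inner membrane protease, was the lowest with 102 and 72.2 CPM (log2 ratio -0.49, interval -0.59 to -0.41).

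Of the 8 CCT subunit genes 7 were higher and CCT2 was lower, with a median log2 ratio of 0.17. CCT8 (ENSG00000156261) was at 160.1 CPM without and 243 CPM with M2BPGi, a log2 ratio of 0.60 with an interval of 0.54 to 0.66. CCT7 (ENSG00000135624) was at 116 and 169.6 CPM, a log2 ratio of 0.55 with an interval of 0.48 to 0.62. The ratio of CCT8 was above that of 98.6% of all genes tested. TCP1, the founding subunit, was at 178 and 216 CPM, a log2 ratio of 0.28 with an interval of 0.22 to 0.33. CCT3 was at 140.5 and 165 CPM, a log2 ratio of 0.23 with an interval of 0.17 to 0.30.

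CCT5, CCT4 and CCT6A differed less, at 464 and 503 CPM, 204 and 215 CPM, and 274 and 288 CPM. Their intervals were 0.08 to 0.15, 0.02 to 0.13 and 0.02 to 0.12. CCT2 stood on the other side of 0, at 164 and 146 CPM, a log2 ratio of -0.17 with an interval of -0.24 to -0.11. Each CCT ring holds the subunits in equal number, but their 5′ tags were not equal. From CCT7 to CCT5 the levels spanned 4.02-fold in non-treated cells, and from CCT2 to CCT5 they spanned 3.44-fold in M2BPGi-treated cells. Their sum went from 1701 to 1945 CPM, a log2 ratio of 0.19 with an interval of 0.17 to 0.21. Some CCT genes have listed pseudogene copies, and the subunits without one had a lower median of 0.07.

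Prefoldin had the highest median of the groups, 0.32, with 4 of 5 genes higher and PFDN4 lower. PFDN6 was at 135 CPM without and 175 CPM with M2BPGi, a log2 ratio of 0.37 with an interval of 0.31 to 0.44. PFDN2, which is a subunit of URI1 complexes too, was at 171 and 222 CPM, a log2 ratio of 0.37 with an interval of 0.32 to 0.43. PFDN5, also known as the MYC-binding protein MM-1, was at 286 and 359 CPM, a log2 ratio of 0.32 with an interval of 0.28 to 0.37. These 3 genes were the prefoldin genes past 25% higher, and their intervals lay above 0. PFDN5 was just past that threshold, and with 5 CPM added in place of 1 CPM it was not, which left 6 of the 39 genes.

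PFDN1 was at 59.1 and 71.4 CPM, a log2 ratio of 0.27 with an interval of 0.17 to 0.37. PFDN4 was at 42.6 and 39.0 CPM, a log2 ratio of -0.13, and its interval began at -0.26 and ended just under 0, or at 0.05 after recentring. VBP1, a prefoldin subunit outside the 39 genes, was at 25.4 and 27.7 CPM, with an interval of -0.04 to 0.28. PFDN4 and VBP1 were thus the least abundant of these prefoldin genes and the ones nearest to 0. The 5 prefoldin genes summed to 694 and 866 CPM, a log2 ratio of 0.32 with an interval of 0.29 to 0.35.

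Partners and clients of CCT and prefoldin were looked at by the same measure. Among 15 partners and tubulin cofactors 11 were higher and 4 lower, with a median of 0.07 that was 0.12 after recentring. However, 1 was at least 25% higher, beside 9.04% of all genes, and 1 at least 20% lower, beside 18.4%. ARL2, a GTPase that acts with the tubulin cofactors, was the highest at 126 and 171 CPM (log2 ratio 0.44, interval 0.37 to 0.51). TBCEL, which destabilises tubulin, was the lowest of those with a mean of at least 10 CPM, at 17.1 and 15.0 CPM (interval -0.40 to 0.01). Of 13 actin and tubulin genes, the main clients of CCT, 11 were higher and 2 lower, with a median of 0.15, and 2 were at least 25% higher and 0 at least 20% lower. ACTG1 was at 1209 and 1672 CPM (log2 ratio 0.47, interval 0.45 to 0.49), and TUBB2A was at 54.5 and 49.2 CPM (interval -0.26 to -0.03).

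The chaperones of the endoplasmic reticulum, which fold secreted proteins, were listed for comparison. Of 19 such genes 0 were higher and 19 lower, with a median of -0.35. By at least 20% lower were 13, beside 18.4% of all genes. After recentring, 8 of them and 1920 of all 13724 genes were at least 20% lower. CANX was at 1794 CPM without and 1244.5 CPM with M2BPGi, a log2 ratio of -0.53 with an interval of -0.55 to -0.51. MANF had the highest ratio, -0.03, with 123 and 119.9 CPM, and this ratio lies above the all-gene median of -0.05, so recentring turns its sign. HSPA5 and HSP90B1 were picked after their values were seen, as the relatives of HSP70 and HSP90 in this compartment. HSPA5 was at 576 and 457 CPM, a log2 ratio of -0.33 with an interval of -0.37 to -0.30, while HSPA8 and HSPA1A in the cytosol were at 0.03 and -0.37 and HSPA9 in mitochondria at 0.16. HSP90B1 was at 3043 and 2148 CPM, a log2 ratio of -0.50, while HSP90AA1 and HSP90AB1 were at -0.24 and -0.13 and TRAP1 at 0.24. The difference between the lists was not tested.

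**Figure D4:**
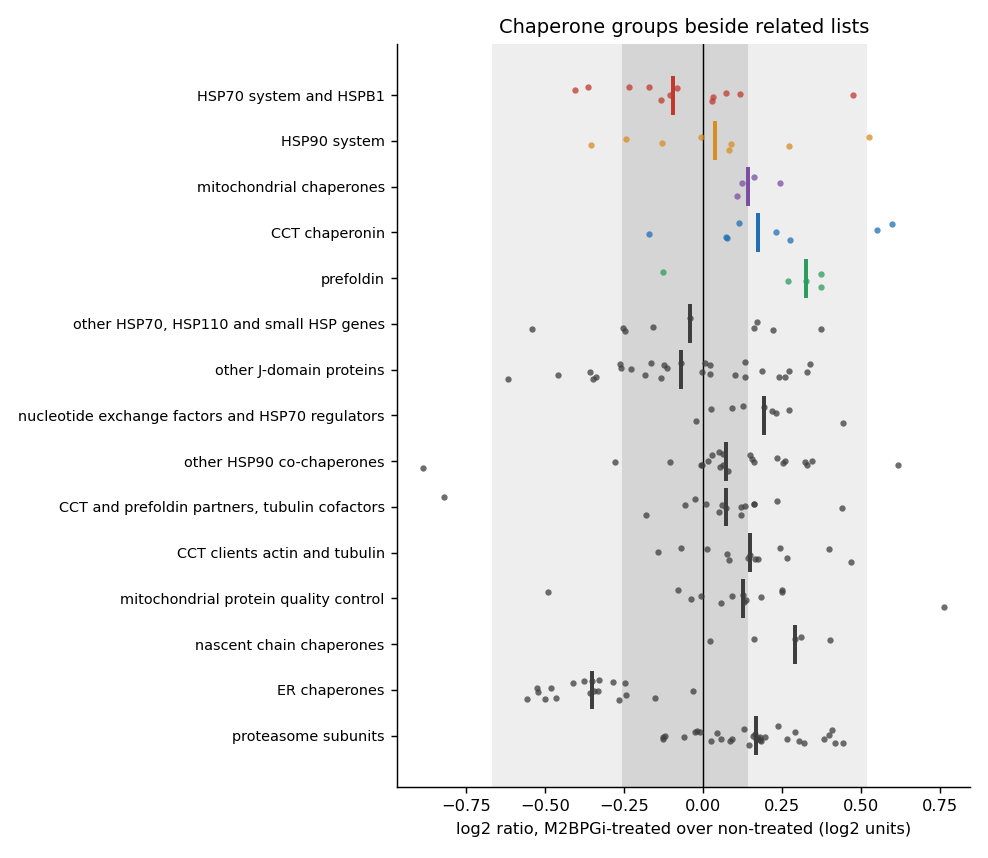
Log2 ratios (with over without M2BPGi) by group of chaperone genes (colours) and for lists of related genes (dark grey), with 1 library per condition. Points are genes, vertical bars are medians, and the shading holds the middle 50% (dark) and middle 95% (light) of all genes tested. Prefoldin has a median of 0.32 and the endoplasmic reticulum chaperones have -0.35.

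Transcript length moved with the ratios and is given here for that reason. Over 13271 genes with a length in GENCODE v29, Spearman's rho between the longest transcript and the log2 ratio was -0.16. This is a description across genes of the same libraries, and genes are not independent replicates. In 5 classes of length, the median log2 ratio went from 0.04 for genes up to 1677 nt to -0.12 for genes of 5580 nt or more. The 39 chaperone genes had a rho of -0.42, and 7, 18, 9, 4 and 1 of them fell in the 5 classes from short to long. Their medians from short to long were 0.12, 0.09, 0.07, -0.07 and -0.13, where all genes had 0.04, -0.01, -0.06, -0.07 and -0.12. The part of length in these ratios was not tested.

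**Figure D5:**
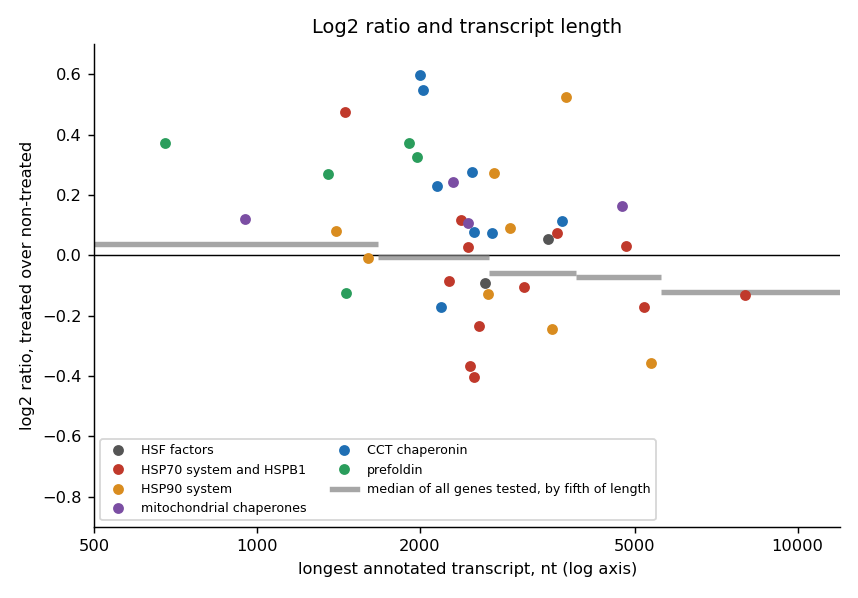
Log2 ratio against the longest GENCODE v29 transcript on a log axis for the 39 genes, coloured by group, with 1 library per condition. Grey bars are medians of all genes tested in 5 classes of length, from 0.04 for the shortest to -0.12 for the longest. The 39 genes have 7, 18, 9, 4 and 1 points in these classes from short to long.

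Liver markers were used to check the labelled cell line. All 8 hepatocyte or hepatoma markers were listed, and they summed to 2388 CPM without and 1713 CPM with M2BPGi. FGB was the most abundant at 950.03 and 623 CPM, AFP was at 695 and 566 CPM, and ALB was low at 8.82 and 7.04 CPM. HNF4A and APOA1 went the other way, at 39.1 and 43.8 CPM and at 4.37 and 4.63 CPM. Of the fibroblast or stellate markers 2 of 5 were listed, with a sum of 5.20 and 4.18 CPM. Leukocyte or Kupffer markers had 3 of 5 listed, with a sum of 53.2 and 49.7 CPM, mainly LYZ at 32.1 and 29.2 CPM, and PTPRC was at 0 in both libraries. Of the endothelial markers 0 of 4 were listed. The lower sum of the liver markers in M2BPGi-treated cells stands beside the chaperone results, its part in them was not tested, and fewer cells of a kind and less RNA per cell cannot be told apart.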

How the data were processed

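PLC/PRF/5 cells gave 1 CAGE library per condition. The authors discarded ribosomal tags and those with undetermined bases, mapped with BWA and deposited CPM with 2 decimals. A mouse genome is named in the methods, hg19 and HISAT2 in the submitters' processing notes, while the identifiers are human. Assignment to genes and treatment of tags with several places are not given in the sources used here. Members and lists were chosen with earlier results of these data known.

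Tag numbers were recovered from the CPM: for 1 total per library, 100% of values were whole tags within the rounding of 0.005 CPM. A stricter check of whole tags, at a tolerance not given here, was not passed. Tag numbers therefore serve only for the intervals and an exact two-sided binomial test (Benjamini-Hochberg over 13724 genes, threshold 0.05). A count of 0 allows up to 0.125 CPM without and 0.121 CPM with M2BPGi. Log2 ratios used 1 CPM added and genes with a mean of at least 1 CPM.

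The text names all members, and of each list the 2 highest and 2 lowest ratios with a mean of at least 10 CPM, of which some are left out. It also names copies at 10% or more of their member. HSPA5, HSP90B1, VBP1, MOB4, SNORD14C, SNORD14D, SNORD14E, DNAJB12 and DNAJB14 were named after their values were seen. Genes were matched by symbol to RefSeq windows and by identifier to GENCODE v29 (GRCh38), a later build than hg19. Protein sequences were not used here. Alternatives were other pseudocounts, filters, folds, recentring, and pseudogene copies added or left out. Python 3.11.15, numpy 2.4.6, pandas 2.3.3, scipy 1.17.1 and Biopython 1.88 were used.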

Additional observations from a re-analysis of the deposited data

How the results depend on the processing

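No paired analysis was possible because a single library stands for each condition. Of 260 values of single chaperone genes under the alternatives run, 12 moved by more than counting error, all on recentring by 0.05, and 1 changed sign, CDC37. Many of these values were fixed in advance, since filters and the omission of genes do not alter the ratio of a gene that stays. Recentring shifts every gene by the same amount, so the 12 are the genes with the narrowest intervals. Of 55 medians of the related lists, 0 moved by more than the median counting error of the list's genes. That error is of single genes and was above the recentring shift of 0.05 in every list, so recentring could not pass it. However, 2 medians near 0 changed sign. The J-domain genes went from -0.07 to 0.0011 with a mean of at least 10 CPM, and the other HSP70 and small HSP genes from -0.04 to 0.01 on recentring. Without a change of sign, recentring moved the other HSP90 co-chaperones from 0.07 to 0.12. It also moved the CCT and prefoldin partners from 0.07 to 0.12, and the J-domain genes from -0.07 to -0.02.

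Numbers of all genes at least 25% higher and 20% lower, 1240 and 2532, were 776 and 1476 with a pseudocount of 5 CPM, and 1477 were lower with a mean of at least 10 CPM. They were 3457 and 5265 at 1.1-fold, 219 and 555 at 1.5-fold, and 33 and 59 at 2-fold. Of the chaperone genes, 7 and 3 at that fold became 13 and 7 at 1.1-fold, 1 and 0 at 1.5-fold, and 0 and 0 at 2-fold. A pseudocount of 5 CPM left 6 higher, without PFDN5. Recentring left 1 lower, HSPA1B, and made 9 higher, with TCP1 and STIP1 added. It moved the mitochondrial median from 0.14 to 0.19, the HSP70 median from -0.10 to -0.04 and the HSP90 median from 0.04 to 0.09. Without the members that have listed copies, 15 of 26 genes were higher instead of 25 of 39, and the CCT median was 0.074 instead of 0.17. Fewer genes are counted then, and the cause of the CCT value was not tested.

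The binomial test called 6811 genes, and 5750 with a mean of at least 10 CPM. The use of this filter with the binomial test, and the medians without HSPE1, were added after seeing the data. An exact test with an assumed biological variation, and other normalization factors, were planned but not run. Both take counts, and the recovered tag numbers did not pass the stricter check of whole tags. Of 25 listed pseudogene copies of 13 chaperone genes, 13 were at 0 in both libraries, and copies outside the list of genes were not searched.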

Other observations

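Other gene groups of protein synthesis and turnover stood beside the chaperones. All 5 nascent chain chaperone genes were higher with M2BPGi, and their median log2 ratio was 0.29. DNAJC2 and HSPA14 of this list are also counted among the other J-domain and other HSP70 genes. BTF3, which binds chains as they leave the ribosome, was at 336 CPM without and 417 CPM with M2BPGi, with an interval of the tag ratio of 0.27 to 0.35. Its relative BTF3L4 was at 41.3 and 54.8 CPM, a log2 ratio of 0.40, and DNAJC2 was the lowest of the list with 64.6 and 65.6 CPM.

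The proteasome, which degrades proteins that are not refolded, had 31 listed subunit genes on 32 rows, since PSMA1 has 2 rows. Of these rows 25 were higher and 7 lower, with a median of 0.17, and 5 were at least 25% higher, beside 9.04% of all genes, and 0 at least 20% lower, beside 18.4%. After recentring, 8 rows and 1716 of all 13724 genes were at least 25% higher. PSMD3 was at 47.3 and 63.4 CPM, a log2 ratio of 0.42 with an interval of 0.31 to 0.53. PSMC6 was at 108 and 98.8 CPM, a log2 ratio of -0.13 with an interval of -0.21 to -0.05. HSBP1L1, a relative of HSBP1, was at 11.6 and 16.5 CPM, a log2 ratio of 0.48 with an interval of 0.29 to 0.73.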
